A study of Mus musculus with 7 samples.

Results

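The unfolded protein response was followed in temperature-responsive and non-responsive ERα neurons through 10 genes: the stress sensors Ern1, Eif2ak3 and Atf6, the transcription factors Atf4, Xbp1 and Ddit3, the chaperones Hspa5, Hsp90b1 and Calr, and the degradation factor Herpud1. They were picked by name, as a list of endoplasmic reticulum (ER) stress and folding genes, from 24062 gene symbols; the rule used no measured value, but the list was drawn up with earlier results of these data known. All 10 were among the 14407 genes that had at least 10 counts in at least 3 samples and were therefore tested. The RNA came from ZsGreen-positive neurons in brain slices of Esr1-ZsGreen mice, in which a green fluorescent reporter marks cells that express Esr1, the gene for estrogen receptor alpha (ERα). The slices held the medial preoptic area (MPA) of mice 10 to 14 weeks old, described as female. Each neuron was recorded while its slice was warmed by 5 °C, from 25 °C to 30 °C, and its contents were then drawn into the patch pipette (Patch-seq). Each sample pooled 2 neurons of like response, with 4 samples of temperature-responsive neurons, whose firing rate rose with warming, and 3 samples of non-responsive neurons, whose firing rate stayed under the study's cutoff. Neurons of both groups carried the reporter and went through the same warming, so the comparison is between 2 kinds of neuron and not between temperatures. Only ZsGreen-positive neurons were taken.

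The ER is where secreted and membrane proteins are folded, and neurons depend on it for receptors, channels and neuropeptides. When unfolded protein builds up there, 3 sensors in the ER membrane respond: IRE1α (encoded by Ern1) splices the Xbp1 transcript into the form that makes an active transcription factor, PERK (encoded by Eif2ak3) slows translation while favouring that of ATF4, and ATF6 is cut so that its cytosolic part can enter the nucleus. These factors raise transcription of chaperones and of the machinery that removes misfolded proteins, and prolonged activation adds CHOP, encoded by Ddit3, which is linked to cell death. Splicing of Xbp1, cleavage of ATF6 and phosphorylation of PERK leave no trace in gene-level counts, so the values below are transcript levels and not pathway activity.

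Totals were lower in the temperature-responsive samples, at 1914497 to 2814360 counts, than in the non-responsive samples, at 3309361 to 5125280 counts, while 19852 to 21177 and 17818 to 19820 genes were detected, respectively. Neither measure overlapped between the groups, and both gave p = 0.0571 in a two-sided exact permutation test. That is the smallest p this test, which doubles the smaller tail, can give for 4 samples against 3. Esr1 was covered by only 10 to 21 and 19 to 27 counts. In CPM, each count over the library total scaled by trimmed mean of M-values (TMM) times 1000000, summed markers of astrocytes (1090 to 1270 and 882.5 to 1075 CPM), oligodendrocytes (2796 to 3801 and 2372 to 3000 CPM) and microglia (272.7 to 308.2 and 306.6 to 326.4 CPM) were present beside those of neurons (2990 to 3448 and 2699 to 3121 CPM). Endothelial markers summed to 80.3 to 231.1 CPM in temperature-responsive and 15.1 to 58.8 CPM in non-responsive samples, and 3 of 5 were called higher. Across genes, log2 fold changes ran with GC content (Spearman's rho = -0.342 over 13745 genes, which are not independent replicates). The part of depth, gene detection, glial or endothelial RNA and GC content in the differences below was not tested beyond the alternatives given, and fewer neurons contributing RNA cannot be told apart from less RNA per neuron. The Y-linked gene Ddx3y had 684 to 902 and 813 to 1150 counts and Xist 5 to 8 and 2 to 14 counts, values that go against the description of the mice as female and leave no comparison of sexes possible.

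Of the members, 4 carry, just upstream of their RefSeq start sites, the letters known as the ER stress element, which ATF6 and the spliced form of XBP1 recognise together with the CCAAT-binding factor NF-Y. The search used the letters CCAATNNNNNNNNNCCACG for ERSE and ATTGGNCCACG for the shorter ERSE-II, on both strands, in the 250 bases before the start site. ERSE matched in 0.113% and ERSE-II in 0.0304% of 32851 such stretches, and these 2 motifs overlap nowhere in the members. Of the 9 members in the RefSeq promoter table (build GRCm38.p6, the coordinates of mm10; Atf6 has no entry), Hspa5, Hsp90b1 and Calr held ERSE and Herpud1 held ERSE-II. Windows of 30 bases are shown because the 3 chaperones with the element are the members whose levels are contrasted here; each is read on the strand of the element, with the matched letters in capitals.
Hspa5, chr2:34772020-34772049, plus strand: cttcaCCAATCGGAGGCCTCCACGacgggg
Hsp90b1, chr10:86705632-86705661, minus strand: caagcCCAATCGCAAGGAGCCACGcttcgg
Hsp90b1, chr10:86705528-86705557, plus strand: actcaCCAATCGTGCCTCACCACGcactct
Calr, chr8:84847070-84847099, plus strand: atgggCCAATGAGGGTCGACCACGcgttgt
Herpud1, chr8:94386368-94386397, plus strand: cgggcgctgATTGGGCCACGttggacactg

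Hspa5 had its element at -65 to -47 relative to the start site, Calr at -162 to -144 on the opposite strand, and Herpud1 at -52 to -42. The Hspa5 element, though upstream of the RefSeq start site, lies inside the annotated gene span of chr2:34771970-34777547. Hsp90b1 was the member with a pair of ERSE matches, at -212 to -194 on its own strand and at -107 to -89 on the other. Hspa5 also held the UPR element letters TGACGTG at -157 to -151, a shorter motif present in 1.65% of stretches. The stretches of Hsp90b1 and Calr that lie outside the annotated gene are printed on the strand of the gene to show how the elements sit within their surroundings.
Hsp90b1, chr10:86705510-86705694, minus strand: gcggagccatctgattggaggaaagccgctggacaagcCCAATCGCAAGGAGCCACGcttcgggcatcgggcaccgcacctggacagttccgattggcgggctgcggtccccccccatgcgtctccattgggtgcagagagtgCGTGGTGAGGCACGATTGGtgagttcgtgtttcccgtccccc
Calr, chr8:84846935-84847181, minus strand: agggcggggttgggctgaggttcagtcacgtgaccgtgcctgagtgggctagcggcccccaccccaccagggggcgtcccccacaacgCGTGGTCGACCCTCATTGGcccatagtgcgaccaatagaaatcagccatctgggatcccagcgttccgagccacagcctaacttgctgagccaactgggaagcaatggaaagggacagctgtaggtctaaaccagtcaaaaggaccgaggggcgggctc
A match describes the letters of the genome only, and no binding was measured in these neurons.

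Levels of the members were compared per kilobase of exon, as CPM per kilobase averaged over the 7 samples. Hsp90b1 was highest at 105.4 ± 8.89 (SD, n = 7), with Atf4 at 97.7 ± 14.1 and Hspa5 at 90.8 ± 11.4. These 3 overlapped in their ranges over the 7 samples and stood apart from the other members; within the non-responsive samples alone, Hsp90b1 (100.8 to 105.7) lay above Atf4 (77.4 to 98.5) and Hspa5 (78.4 to 84.8). Calr (58.2 ± 7.01), Ddit3 (55.2 ± 6.0) and Herpud1 (52.7 ± 4.57) formed a second overlapping group, although Calr (60.9 to 70.2) lay above Herpud1 (50.7 to 55.0) within the non-responsive samples. Xbp1 stood alone at 35.2 ± 3.21. The membrane sensors were the lowest, with Atf6 at 6.75 ± 1.13 and Eif2ak3 at 4.77 ± 0.945 overlapping each other, and Ern1 at 0.372 ± 0.199 below both. Within the non-responsive samples alone, Atf6 (7.34 to 8.42) lay above Eif2ak3 (3.33 to 5.42). The chaperones, which are abundant proteins, had CPM per kilobase above those of all 3 sensors in every sample.

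Between the 2 groups of neurons, 2 of the 10 members (20.0%) passed an adjusted p of 0.05 in the quasi-likelihood test of edgeR (Benjamini-Hochberg over all genes tested), against 30% of all genes tested. Both, Atf6 and Calr, were lower in temperature-responsive neurons, and 0 were higher, where 15.1% of all genes were called higher and 14.9% lower. An unadjusted p under 0.05 was found for 4 members, against 41.3% of all genes. In CPM, the groups did not overlap for 3 members (30%; Hspa5 higher, Atf6 and Calr lower), against 35.4% of all genes. With 10 members, the totals called, with an unadjusted p under 0.05 or without overlap are within 1 gene of the background, and nothing particular to the members is read from them. The median log2 fold change of the members was 0.023, beside 0.0071 over all genes tested, and the median size of the change, regardless of sign, was 0.218 beside 0.309. Under upper quartile normalization, where 62.1% of calls over all genes were higher instead of 50.3%, the 2 members called were Atf4 and Hspa5, both higher, and under DESeq2 1 member was called, Hspa5, higher.

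**Figure D1:**
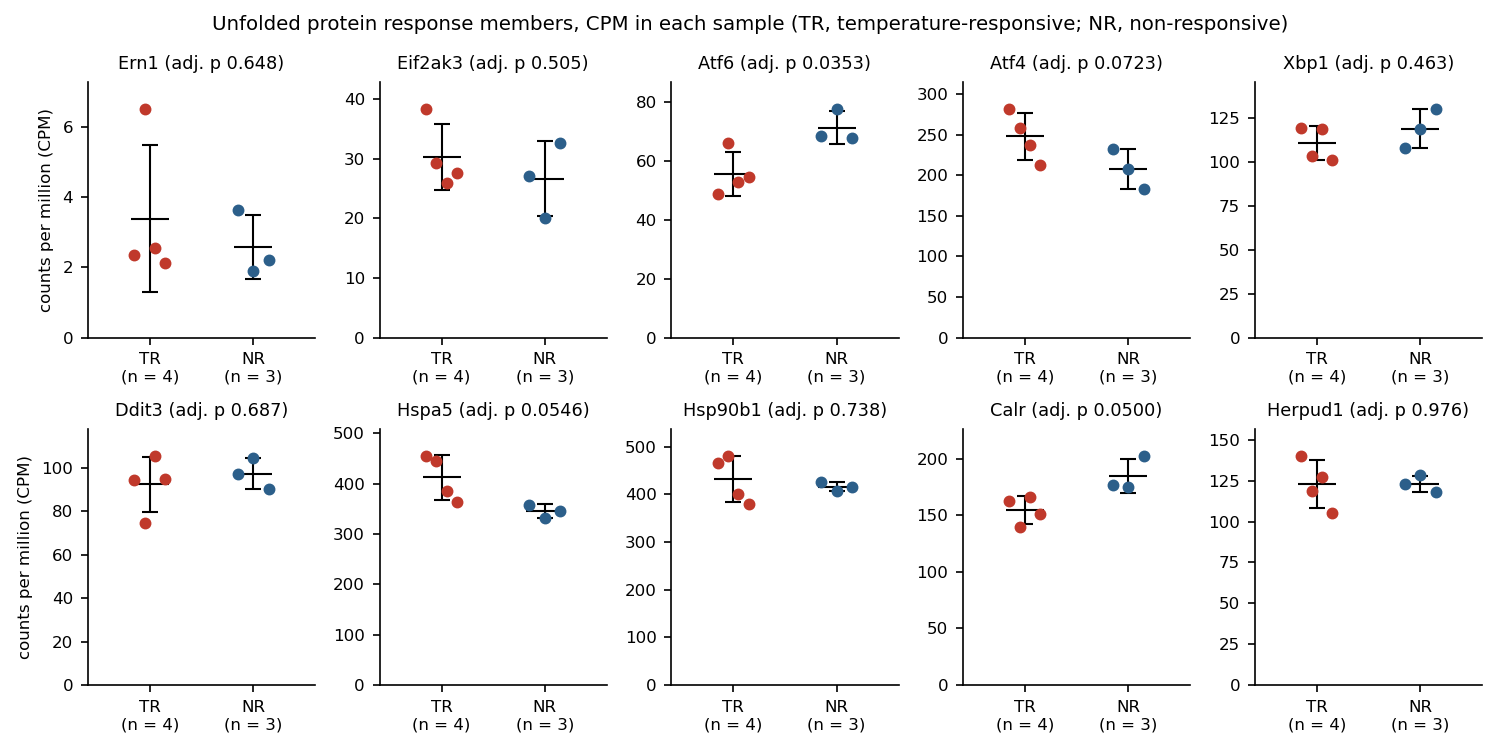
CPM of each member (vertical axes, starting at 0) in the 4 temperature-responsive (TR, red) and 3 non-responsive (NR, blue) samples; bars are mean ± SD and titles give the adjusted p of edgeR's quasi-likelihood test. Atf6 and Calr lie lower in every TR sample than in any NR sample, Hspa5 lies higher in every TR sample, and the groups overlap for the other 7 members.

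Among the sensors, Atf6 was lower in temperature-responsive neurons while Ern1 and Eif2ak3 did not pass the test. Atf6 (chr1:170704674-170867771, minus strand, mm10) is both sensor and transcription factor, and its cut form switches on chaperone genes. It was at 48.6, 66.2, 53.0 and 54.5 CPM in temperature-responsive samples 1 to 4 and at 68.5, 77.7 and 67.7 CPM in non-responsive samples 1 to 3. Temperature-responsive sample 2 lay just under the lowest non-responsive sample, and the other 3 lay well below all of them. The means were 55.6 ± 7.48 (SD, n = 4) and 71.3 ± 5.54 CPM (SD, n = 3), a log2 fold change of -0.37 (SE 0.131, 95% confidence interval -0.64 to -0.10, adjusted p = 0.0353), on 104 to 154 and 227 to 410 counts per sample. The call held in 11 of 19 alternatives and the sign in all 19; among the settings that ended it were DESeq2, upper quartile normalization, the gene detection covariate, and the omission of temperature-responsive sample 1, 3 or 4 or of non-responsive sample 2 (adjusted p over all alternatives 0.00785 to 0.275).

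Eif2ak3 (chr6:70844515-70905245, plus strand), the PERK kinase gene, was at 38.4, 29.3, 26.0 and 27.6 CPM in temperature-responsive and 27.2, 20.1 and 32.7 CPM in non-responsive samples. The groups overlapped broadly, with the highest value in a temperature-responsive sample and the lowest in a non-responsive one. Its log2 fold change was 0.18 (SE 0.193, interval -0.22 to 0.58, adjusted p = 0.505), so its interval still held values of up to 0.58 on the log2 scale. Ern1 (chr11:106394650-106487852, minus strand) was the least covered member, with 5 to 12 counts per temperature-responsive sample and 10 to 12 per non-responsive sample. These gave 2.34, 6.51, 2.56 and 2.12 CPM and 3.62, 1.90 and 2.22 CPM, near the level of 0.568 to 1.63 CPM that 3 counts represent. A single sample, temperature-responsive 2, stood apart. The interval of the Ern1 log2 fold change, -0.77 to 1.51 around 0.37 (SE 0.553, adjusted p = 0.648), left its direction undetermined, and without that sample the value was -0.09.

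None of the transcription factors passed the test, and Atf4 came closest. Atf4 (chr15:80255184-80257541, plus strand) encodes the factor whose translation rises when PERK or a related kinase phosphorylates eIF2α, and it drives amino acid supply and antioxidant genes. Its level was 281.6, 258.7, 237.3 and 213.1 CPM in temperature-responsive and 232.3, 207.5 and 182.5 CPM in non-responsive samples. Samples 1 to 3 of the temperature-responsive group lay above every non-responsive sample, and sample 4 fell among them. The means of 248 ± 29.3 (SD, n = 4) and 207 ± 24.9 CPM (SD, n = 3) gave a log2 fold change of 0.26 (SE 0.107, interval 0.03 to 0.48) with an adjusted p = 0.0723. In 7 of 19 alternatives, among them the GC content offset and upper quartile normalization, Atf4 passed the threshold as higher; adjusted p over all alternatives ran from 0.00145 to 0.712. Its transcript has the highest GC content of the members, 55.5%, beside a median of 49.8% over tested genes.

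Xbp1 (chr11:5520659-5525893, plus strand), whose spliced transcript encodes the factor for chaperone and degradation genes, was at 119.3, 103.6, 118.8 and 101.2 CPM in temperature-responsive and 108.0, 119.0 and 130.4 CPM in non-responsive samples. The ranges overlapped, and the log2 fold change was -0.11 (SE 0.106, interval -0.33 to 0.11, adjusted p = 0.463). Ddit3 (chr10:127290774-127296288, plus strand), the CHOP gene, was at 94.5, 74.8, 105.3 and 94.9 CPM in temperature-responsive and 97.2, 104.8 and 90.3 CPM in non-responsive samples. Temperature-responsive samples held both its lowest and its highest value. With a log2 fold change of -0.07 (SE 0.116, interval -0.31 to 0.17, adjusted p = 0.687), changes larger than about 0.31 on the log2 scale in either direction lay outside the interval. For Ddit3, 4.0% of exonic bases are shared with Mars on the opposite strand, where reads cannot be assigned by strand, and 6.1% with a second annotation entry of the same name.

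Of the chaperones, Calr was lower in temperature-responsive neurons, while Hspa5, with a fold change above 1, and Hsp90b1 did not pass the test. Hspa5 (chr2:34771970-34777547, plus strand) encodes BiP, the ER-resident HSP70 that binds unfolded chains and holds the sensors inactive. It was at 454.2, 445.8, 386.1 and 364.5 CPM in temperature-responsive and 358.5, 331.4 and 345.8 CPM in non-responsive samples. Every temperature-responsive sample was above every non-responsive one, sample 4 by the smallest margin. The means of 413 ± 44.2 (SD, n = 4) and 345 ± 13.5 CPM (SD, n = 3) corresponded to a fold of 1.19 and a log2 fold change of 0.26 (SE 0.10, interval 0.05 to 0.46), with an adjusted p = 0.0546, just outside the threshold. Hspa5 was above 0 in all 19 alternatives and past the threshold in 7 of them, including DESeq2, limma-voom and the omission of non-responsive sample 1, with adjusted p between 0.0181 and 0.459.

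Hsp90b1 (chr10:86690209-86705509, minus strand) encodes GRP94, the ER-resident HSP90 that folds integrins and Toll-like receptors. Its level was 465.9, 479.4, 401.5 and 379.4 CPM in temperature-responsive and 426.4, 406.5 and 415.5 CPM in non-responsive samples. The non-responsive samples lay close together, inside the range of the temperature-responsive ones. The log2 fold change was 0.05 (SE 0.10, interval -0.16 to 0.26, adjusted p = 0.738), and 15.7% of its exonic bases overlap other annotated genes, including the antisense transcript 1810014B01Rik. Calr (chr8:84841850-84846934, minus strand) encodes calreticulin, a calcium-binding lectin chaperone for glycoproteins. It was at 162.8, 139.4, 166.0 and 151.1 CPM in temperature-responsive and 177.1, 175.5 and 202.2 CPM in non-responsive samples. All 4 temperature-responsive samples were below all 3 non-responsive ones, at 155 ± 12.1 (SD, n = 4) against 185 ± 15 CPM (SD, n = 3). That is a fold of 0.838 and a log2 fold change of -0.25 (SE 0.098, interval -0.46 to -0.05), with an adjusted p = 0.049988, just under the threshold of 0.05. The sign held in all 19 alternatives and the call in only 4; leaving out temperature-responsive sample 2, 3 or 4 or non-responsive sample 2 or 3 ended it, as did DESeq2 and limma-voom (adjusted p up to 0.93 over all alternatives).

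Herpud1 (chr8:94386438-94395377, plus strand), which encodes a membrane protein that recruits the ER-associated degradation complex and is a well-known target of the pathway, was at 139.9, 118.8, 127.6 and 105.5 CPM in temperature-responsive and 122.8, 128.3 and 118.3 CPM in non-responsive samples. The non-responsive values fell inside the temperature-responsive range. Its log2 fold change was -0.01 (SE 0.105, interval -0.22 to 0.21, adjusted p = 0.976), the smallest of the 10.

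**Figure D2:**
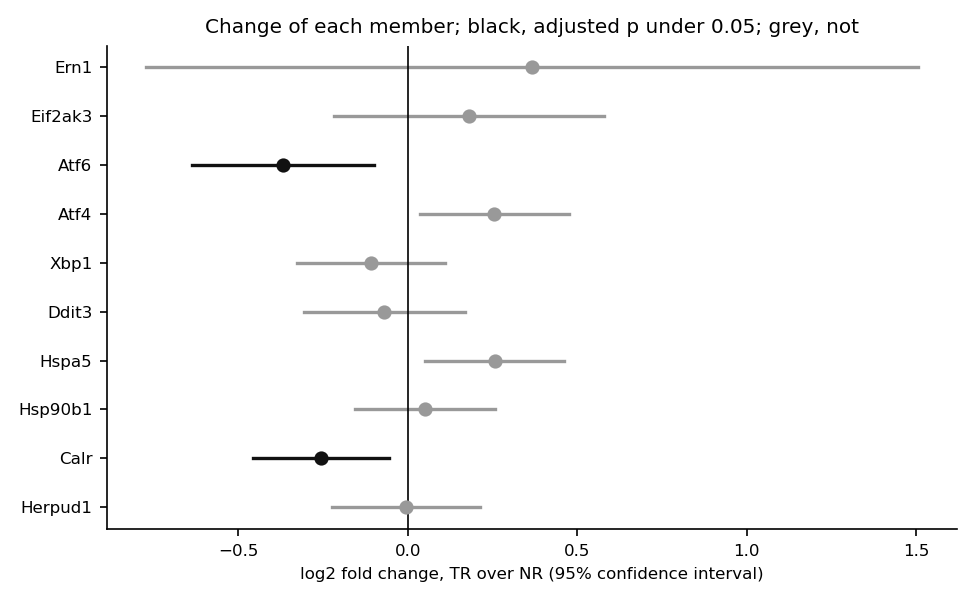
Log2 fold change of each member (horizontal axis, temperature-responsive over non-responsive; points) with its 95% confidence interval (lines). Atf6 and Calr (black) passed the threshold with intervals below 0, the intervals of Atf4 and Hspa5 (grey) lie just above 0 without an adjusted p under 0.05, and Ern1 has the widest interval, -0.77 to 1.51.

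Spread within a group differed between members. Coefficients of variation ran from 7.8% for Calr to 18.3% for Eif2ak3 in the temperature-responsive samples, and from 2.39% for Hsp90b1 to 23.7% for Eif2ak3 in the non-responsive samples, once Ern1 (61.8% and 35.6%) is set aside. For Hspa5, Hsp90b1, Atf4 and Eif2ak3, temperature-responsive samples 1 and 2 were higher than samples 3 and 4. This order is not particular to these members, since listed genes described below, such as Dnajb9, Sec11c and Dnaja1, had it too. Samples 1 and 2 also had the lowest totals, 2264452 and 1914497 counts, and the part of depth in this order was not tested. Calr did not share the order, since its highest temperature-responsive value was in sample 3 and its lowest in sample 2.

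Ratios of counts between members of the same sample do not depend on how samples are scaled to one another; the pairs were chosen after their values had been seen and no test was made. For Hspa5 to Hsp90b1, the ER-resident HSP70 and HSP90, the ratio was 0.9749, 0.930, 0.962 and 0.961 in temperature-responsive and 0.841, 0.815 and 0.832 in non-responsive samples. The values were tight within each group and did not overlap, at 0.957 ± 0.0191 (SD, n = 4) and 0.8294 ± 0.0129 (SD, n = 3). For Hspa5 to Calr the ratio was 2.79, 3.20, 2.33 and 2.41 against 2.02, 1.89 and 1.71, without overlap. The sensor Atf6 relative to Hspa5 was 0.107, 0.148, 0.137 and 0.150 against 0.191, 0.234 and 0.196, lower in each temperature-responsive sample. The separation of the Hspa5 to Calr and Atf6 to Hspa5 ratios was fixed by the CPM values given above. In these, Hspa5 lay higher and Calr and Atf6 lower without overlap, so both ratios restate those values. How often other pairs of genes separate was not examined. Atf4 to Ddit3, a factor and its target, overlapped, at 2.98, 3.46, 2.25 and 2.25 against 2.39, 1.98 and 2.02. A ratio shows that its 2 genes differed unequally between the groups and not which of them differed.

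**Figure D3:**
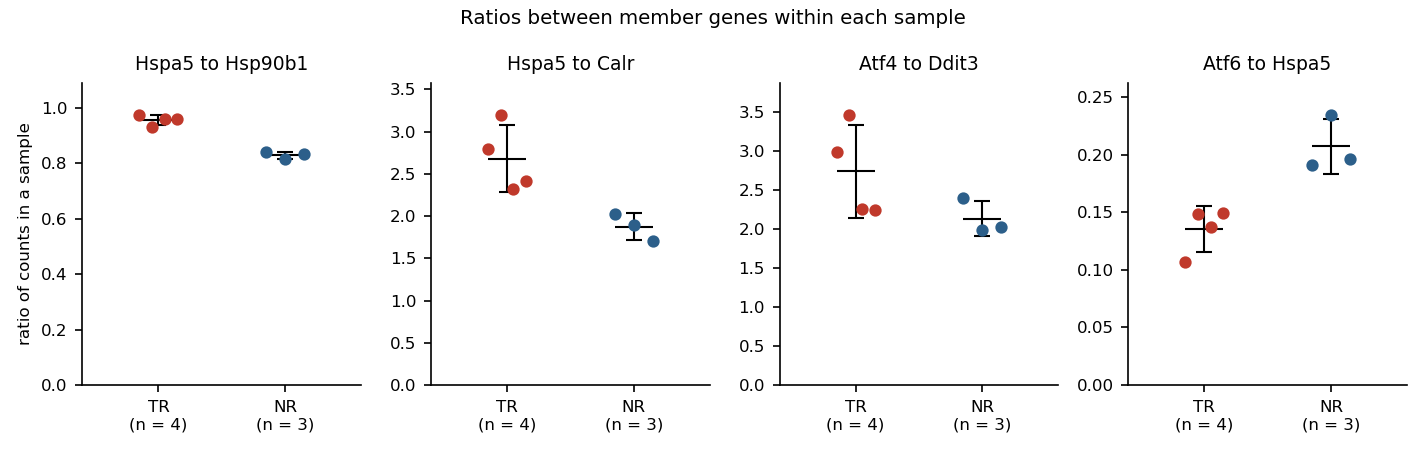
Ratio of the counts of 2 members within each sample (vertical axes, starting at 0) for the temperature-responsive (TR, red, n = 4) and non-responsive (NR, blue, n = 3) samples, with mean ± SD. The Hspa5 to Hsp90b1, Hspa5 to Calr and Atf6 to Hspa5 ratios do not overlap between the groups, and the Atf4 to Ddit3 ratio does. For Hspa5 to Calr and Atf6 to Hspa5 this follows from the CPM of the single genes.

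Which members were called depended on the processing. The number called was 2 as reported and between 0 and 3 with other tools, normalizations, filters and covariates, and between 0 and 4 when 1 sample was left out. It was 0 without temperature-responsive sample 3 or non-responsive sample 2, 1 without temperature-responsive sample 1 or 2 or non-responsive sample 3, and 4 without non-responsive sample 1, when Atf4 and Hspa5 joined Atf6 and Calr. With the number of detected genes as a covariate, 0 members were called and 1 had an unadjusted p under 0.05, in a fit that called 1 gene in all and in which 2061 genes had an unadjusted p under 0.05. Across all alternatives the signs of Atf6, Atf4, Hspa5, Calr and Eif2ak3 held, whereas those of Ern1, Xbp1, Ddit3, Hsp90b1 and Herpud1 turned in at least 1.

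**Figure D4:**
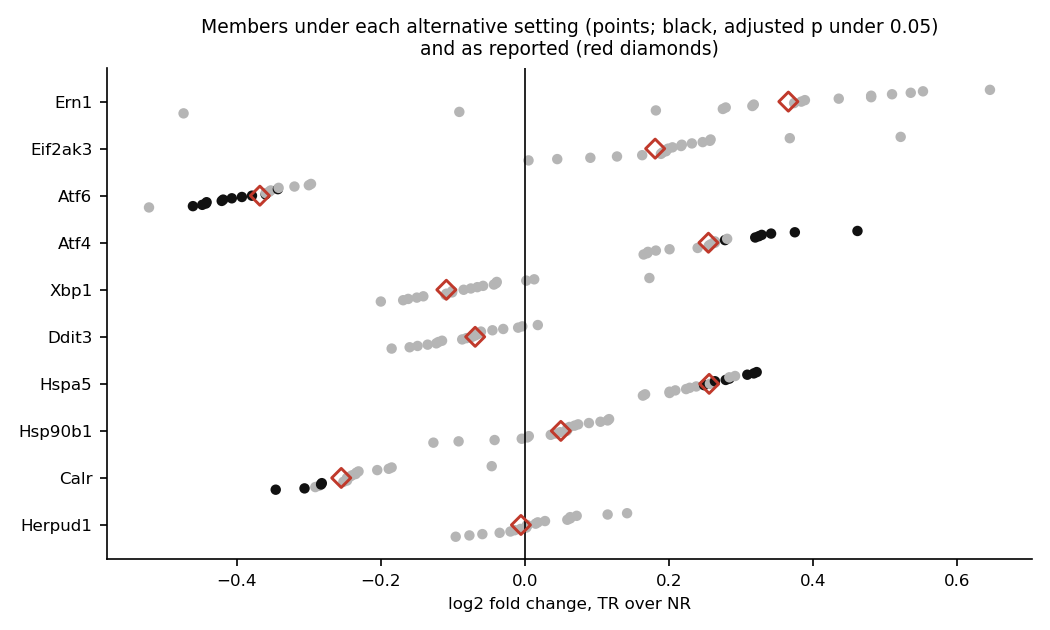
Log2 fold change of each member (horizontal axis) under up to 19 alternative settings (points; black where the adjusted p was under 0.05) and as reported (red diamonds). Atf6 and Calr stay below 0 and Hspa5, Atf4 and Eif2ak3 above it, while Herpud1 and Hsp90b1 lie on both sides.

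The wider pathway was described through 6 lists holding 115 genes, of which 111 were tested. In these, 14 genes were called higher and 18 lower, 28.8% in all, close to the background of 30%, with a median log2 fold change of -0.06. Among ER co-chaperones and oxidative folding genes, 3 of 24 were called higher and 4 lower (29.2%); with 1 sample left out 3 to 9 were called, with 0 lower without non-responsive sample 3, 1 without temperature-responsive sample 2 and 2 without temperature-responsive sample 3. Dnajb9, the BiP co-chaperone ERdj4 and a well-known target of spliced XBP1, had the clearest rise, from 96.9, 84.1 and 81.1 CPM in non-responsive to 182.4, 168.7, 147.0 and 128.8 CPM in temperature-responsive samples. The groups were well separated, with a log2 fold change of 0.84 (SE 0.117, adjusted p = 6.57e-05), and the call was lost in 1 of 19 alternatives, the gene detection covariate. Fkbp2, an ER prolyl isomerase, also rose (0.57, adjusted p = 0.0013), while Creld1 (-0.42, adjusted p = 0.0146) and Creld2 (-0.41, adjusted p = 0.044) fell; the Creld2 call was kept in only 6 of 19 alternatives. Other targets that commonly accompany Dnajb9 did not pass: Sdf2l1 was at 0.04 (adjusted p = 0.92), Pdia4, a disulfide isomerase, at 0.11 (adjusted p = 0.573) and Hyou1, the BiP exchange factor, at -0.26 (adjusted p = 0.454).

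ER-associated degradation, which returns misfolded proteins to the cytosol for destruction, had 1 of 19 tested genes called higher and 3 lower. This share of 21.1% stood beside a background of 30%. The total of 4 became 2 without temperature-responsive sample 2 and 1 without non-responsive sample 3. Herpud2, a relative of Herpud1, rose by 0.38 on the log2 scale (adjusted p = 0.0115), in contrast to the Herpud1 value of -0.01; whether the 2 genes differ from each other was not tested. Ufd1l, part of the extraction complex, fell by 0.48 (adjusted p = 0.00355), and Os9, a lectin that delivers substrates, fell by 0.43 (adjusted p = 0.0176). The scaffold Sel1l was at 0.03 (adjusted p = 0.822).

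In the PERK-ATF4 integrated stress response, 2 of 24 genes were called higher and 6 lower (33.3%, beside a background of 30%). The median log2 fold change was -0.08. The total of 8 became 5 without temperature-responsive sample 2 and 4 without non-responsive sample 2. Slc3a2, the heavy chain of several amino acid transporters, was at 79.1, 54.8, 85.9 and 66.9 CPM in temperature-responsive and 104.4, 122.2 and 136.5 CPM in the non-responsive ones; its log2 fold change was -0.75 (SE 0.13, adjusted p = 0.00033). Slc7a11, the cystine transporter subunit that pairs with it, went the other way at 0.38 (adjusted p = 0.0319), a call lost in 9 of 19 alternatives, among them the omission of temperature-responsive sample 2 or 3 or non-responsive sample 2 or 3. Eif2ak1, the heme-regulated eIF2α kinase, fell by 0.89 (adjusted p = 0.000815), and Ppp1r15a, the GADD34 subunit that directs dephosphorylation of eIF2α, by 0.59 (adjusted p = 0.00907). Trib3, a pseudokinase induced by ATF4 and CHOP, rose by 2.35 (SE 0.598, adjusted p = 0.00503) on only 5 to 16 counts against 3 to 6. It reached 10 counts in 3 samples, all temperature-responsive, so it passed the filter only through the group where it was high, and it was not tested when any of those 3 samples was left out. Atf3 was at -0.07 (adjusted p = 0.667).

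The 14 tested ER-membrane bZIP factors and their processing proteins had 1 gene higher and 1 lower (14.3%), a total that ran from 1 to 4 with 1 sample left out, 4 being without temperature-responsive sample 1. Mbtps2, the site-2 protease that completes the cleavage of ATF6, rose by 0.51 (adjusted p = 0.00551), at 68.3 to 95.9 CPM beside 54.8 to 57.7 CPM, a call lost in 3 of 19 alternatives, among them the GC content offset. Tmbim6, a calcium channel-like protein that restrains IRE1α, fell by 0.25 (adjusted p = 0.0387) and kept its call in 5 of 19 alternatives. The translocon and signal peptidase list, the entry gate of the ER, had the largest share called, 8 of 16 tested genes, 7 of them higher (50%, against the background of 30%), with a median log2 fold change of 0.22. Without temperature-responsive sample 3, non-responsive sample 2 or non-responsive sample 3, 5 were called, 4 of them higher. Sec11c (0.70, adjusted p = 0.000391) and Spcs1 (0.57, adjusted p = 0.00112), both of the signal peptidase complex, led the rises. Spcs2 (0.19, adjusted p = 0.125), Spcs3 (0.002, adjusted p = 0.991) and Sec11a (-0.14, adjusted p = 0.398) of that complex did not pass. Ssr2 of the translocon-associated complex fell by 0.43 (adjusted p = 0.00603). Ssr1 (0.25, adjusted p = 0.0439), Ssr3 (0.55, adjusted p = 0.000713) and Ssr4 (0.32, adjusted p = 0.0166) of the same complex were called higher. N-glycosylation and glycan trimming had 0 of 14 genes higher and 3 lower (21.4%). The 3 included Uggt1, the folding sensor of glycoproteins (-0.57, adjusted p = 0.00142), and Prkcsh, the glucosidase II β subunit (-0.56, adjusted p = 0.00134). Ganab (-0.14, adjusted p = 0.368) and Uggt2 (-0.03, adjusted p = 0.902) of the same list did not pass. Calr, which binds the glycans that Uggt1 and Prkcsh act on, was also called lower, but kept its call in only 4 of 19 alternatives. Canx, the other lectin chaperone, was called higher (0.51, adjusted p = 0.00234).

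**Figure D5:**
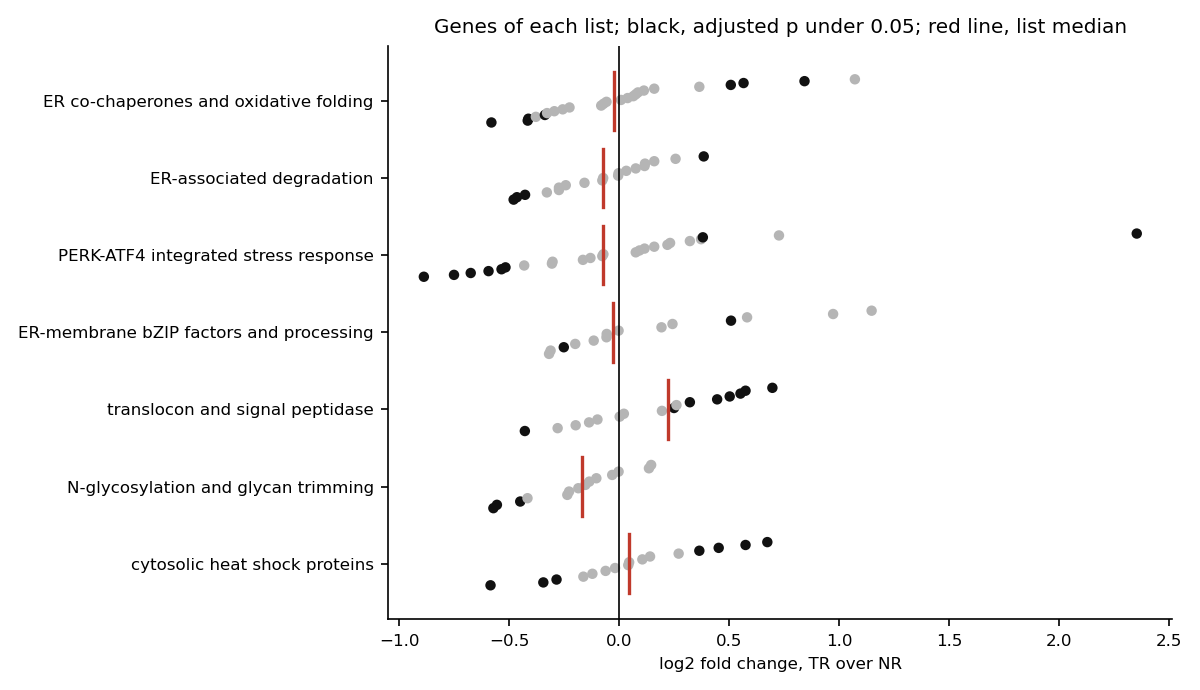
Log2 fold change of every tested gene (points; black, adjusted p under 0.05) in 6 pathway lists and in the cytosolic heat shock proteins, with the median of each list (red lines). The translocon and signal peptidase list has the highest median (0.22) and N-glycosylation and glycan trimming the lowest (-0.17), and Trib3 is the point farthest to the right.

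Cytosolic heat shock proteins, the counterpart of the ER response in the cytosol, were set beside the members because the neurons had been warmed. Of 16 genes, 4 were called higher and 3 lower (43.8%, beside a background of 30%), with a median log2 fold change of 0.04. The total of 7 became 4 without temperature-responsive sample 1 or 2 or non-responsive sample 2 or 3. Both groups were warmed, so these values do not compare warmed with unwarmed neurons. Dnaja1, an HSP40 co-chaperone, rose by 0.67 (adjusted p = 0.000315), and Hspa1b, an inducible HSP70, by 0.57 (adjusted p = 0.0407). The Hspa1b call was lost in 9 of 19 alternatives. Hspa1a, the near-identical copy of Hspa1b that can take part of its reads, did not pass (0.105, adjusted p = 0.701). Hsf1, the master heat shock factor, fell by 0.58 (adjusted p = 0.00506) and Hsp90ab1, the constitutive HSP90, by 0.34 (adjusted p = 0.00747).

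Several of the calls among listed genes rested on single samples. Without non-responsive sample 3, Creld1, Herpud2, Os9 and Hsp90ab1 no longer passed, with adjusted p of 0.0559 to 0.227. Creld1 and Os9 were also lost without temperature-responsive sample 2, and Ppp1r15a without non-responsive sample 2 (adjusted p = 0.0882). Creld2, Slc7a11, Tmbim6 and Hspa1b lost their calls in each of these fits. All of the listed genes named here that passed lost their calls with the gene detection covariate, a fit that called 1 gene in all; some of their log2 fold changes stayed close to those reported (0.828 for Dnajb9, -0.512 for Ufd1l, 0.66 for Mbtps2, 0.581 for Sec11c) and others shrank (-0.357 for Eif2ak1, 0.038 for Slc7a11). Creld1, Creld2, Herpud2, Os9, Slc7a11, Mbtps2 and Tmbim6 lost theirs with the GC content offset. Trib3, which passed the filter only through the group where it was high, was tested in 14 of 19 alternatives. It kept its call in 13, which is not read as support for the call. Dnajb9, Fkbp2, Ufd1l, Eif2ak1, Slc3a2, Sec11c, Spcs1, Uggt1, Prkcsh and Dnaja1 each kept theirs in 18 of 19. For Ufd1l no GC content was available, so the GC content offset left it at -0.48, and fits with that offset could not test its call.

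Of 45 symbols with ERSE or ERSE-II in the upstream stretch, 21 were tested. Among these, 6 were called higher and 4 lower (47.6%, against 30% of all genes tested), with a median log2 fold change of -0.005. Whether this share differs from the background was not tested. Beside Hspa5, Hsp90b1, Calr and Herpud1, this set held 5 listed genes of the pathway, chosen for the motif and not for their values: Canx, the membrane-bound partner of calreticulin (0.51, adjusted p = 0.0023), Pdia6 (-0.34, adjusted p = 0.0137), Creld2 (-0.41, adjusted p = 0.044), Dnajc3 (-0.06, adjusted p = 0.707) and Syvn1, the degradation ligase HRD1 (-0.27, adjusted p = 0.159). Calr and Canx, which share the letters and the function of lectin chaperone, were called in opposite directions. However, the Calr call was kept in only 4 of 19 alternatives, and that of Creld2 in 6 of 19.

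The genes whose pattern over the 7 samples was most like that of 3 members were found among 5871 tested genes of mean CPM of at least 50, by the root mean square difference in centred log2 CPM. For Hspa5 these were Msmo1 (0.021), Pja2 (0.031) and Syt11 (0.035), and the nearest member was Atf4 (0.090). Atf4 was nearest to Ngly1 (0.032), Msi2 (0.043) and Tmx2 (0.045). For Xbp1 they were Ptk2 (0.036), Desi2 (0.049) and Ankrd46 (0.050), and its nearest member was Calr (0.095). Likeness in this measure is a description over 7 points that share depth and scaling.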

How the data were processed

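The authors aligned reads of 7 Patch-seq samples to mm10 with STAR 2.6.0, dropped PCR duplicates (RmDup) and deposited raw counts for 24062 gene symbols from HTSeq 0.9.1, not normalized; the annotation, strand setting and rule for overlapping genes are not given in the sources used here. Since the reads carry no molecular identifiers, this step may also have discarded separate molecules of abundant genes. The test was that of edgeR 4.0.16 on the deposited counts, after genes with fewer than 3 samples at 10 counts or more had been left out (R 4.3.3; TMM, robust quasi-likelihood test, two-sided, Benjamini-Hochberg over 14407 genes, threshold 0.05); the authors had used DESeq2. CPM used TMM-scaled library sizes. Standard errors were the size of the log2 fold change over the square root of its F value. DESeq2 1.42.0, limma 3.58.1, other normalizations, filters, downsampling, gene detection as a covariate, a GC content offset (mgcv 1.9.3), the replicate number as a block and omission of each sample were alternatives. The scripts were tested on simulated counts with 200 genes changed. Gene positions and lengths came from GENCODE M21, in which 94.5% of symbols were found, and upstream sequences from RefSeq. Samples were grouped by their labels. Pairs of samples within a group differed by more than counting noise (chi-square per degree of freedom of 1.94 to 5.36 over 9 pairs); the mouse behind each sample is not given, and the slice imaging is described for fewer mice than there are samples, so samples may share a mouse and p-values, which take them as independent, may be too small.

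The 10 members and all lists were chosen with earlier results of these data known. Beside the members, the rule named up to 2 largest rises and 2 largest falls per list among genes past the threshold without overlap of the groups, plus Dnajb9, Sdf2l1, Pdia4, Hyou1, Atf3, Trib3, Ppp1r15a and Sel1l. Genes named for the ER stress element, or as partners or copies of named genes, are outside that rule. For Hspa5, Atf4 and Xbp1 the 3 most similar genes are named. Choroid plexus markers summed to 305.5 to 399.7 and 266.7 to 347.6 CPM in temperature-responsive and non-responsive samples. Equal sample numbers in the 2 groups do not mark the same neurons. Derl3, Creb3l4, Sec61g and Srp54a did not pass the filter.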

Additional observations from a re-analysis of the deposited data

Results flagged for a closer look

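Among 14 sets of 4 temperature-responsive values checked, 1 held a sample far from the rest: Ern1 in temperature-responsive sample 2, at 6.51 CPM (12 counts) beside 2.12 to 2.56 CPM in the others. Its gap to the nearest sample was 0.901 of the whole range, above the 95% critical value of Dixon's test for 4 samples. Chance alone flags about 1 in 20 such sets.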

How the results depend on the processing

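The number of members called was 2 as reported, 1 with DESeq2, with median-of-ratios size factors and with downsampling, 0 with gene detection as a covariate, and 0 to 4 when 1 sample was left out. Genes called over all numbered 4327 as reported, 1 with the covariate, 2816 with the GC content offset added to the replicate block, and 2620 (without non-responsive sample 3) to 4583 when 1 sample was left out. The replicate block alone called 2 members (Atf4 and Hspa5) and 4124 genes; deviations of same-numbered samples correlated at -0.128, -0.062 and 0.032, and none of the 3 temperature-responsive samples correlated best with its own number. Of the members, Ern1 is the most limited by depth, at 5 to 12 counts. The cause of these changes was not tested.

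Log2 fold changes changed sign as follows. Os9 was the one of these genes called as reported. With the covariate, Ern1 was at -0.474, Xbp1 at 0.173, Herpud1 at 0.115, Os9 at 0.051 and Hyou1 at 0.081. Library size alone gave Hsp90b1 -0.0043, Sdf2l1 -0.015 and Sel1l -0.021. Testing all genes with at least 1 count gave Hsp90b1 -0.042, Sdf2l1 -0.056 and Sel1l -0.059. The GC content offset gave Hsp90b1 -0.127, Herpud1 0.063 and Sel1l -0.0055, and with the replicate block Xbp1 was at 0.013, Hsp90b1 at -0.092, Herpud1 at 0.142 and Atf3 at 0.029. Herpud1 was also at 0.063 with the block alone, 0.0031 with DESeq2, 0.0028 with median-of-ratios factors, 0.059 with upper quartile normalization and 0.018 when 10 counts were required in all 7 samples, and downsampling gave 0.0020 for both Herpud1 and Xbp1. With 1 sample left out, values ranged from -0.091 to 0.646 for Ern1, -0.135 to 0.018 for Ddit3, -0.077 to 0.072 for Herpud1, -0.034 to 0.169 for Sdf2l1, -0.179 to 0.065 for Atf3 and -0.0054 to 0.075 for Sel1l.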
